A study of Arabidopsis thaliana with 6 samples.

Results

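The genes described here are those of Arabidopsis thaliana whose name in the deposited expression table is ABC, a subfamily letter from A to I and a number, the usual names of ATP-binding cassette (ABC) transporter genes. The rule uses the name alone and no measured value. It found 110 genes of the 32948 listed, namely 12 in subfamily A, 27 in B, 13 in C, 3 in E, 5 in F, 39 in G and 11 in I, with no D or H. Seedlings of the genotype WT (wild type) were compared at 6 h between 2 groups: MS medium, commonly used to culture plants, to which 20 mM yttrium oxide nanoparticles had been added (treated, 3 libraries), and the medium alone (control, 3 libraries). The nanoparticles are a rare-earth metal oxide, and the series asks how seedlings respond to them. The labels name the tissue only as seedlings and give neither age nor ecotype. The name ABCC2 stands on 2 rows, AT2G34660 and AT1G54350. The RefSeq annotation gives that name to the first and calls the second ABCD2. The second is therefore named here by its gene ID, but by the rule it is counted in subfamily C.

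ABC transporters use ATP to move molecules across membranes. A complete transporter has a pair of membrane domains and a pair of nucleotide-binding domains, either in 1 long protein or joined from shorter proteins, and the members of subfamilies E and F have no membrane domain and act on ribosomes. In plants, family B carries auxin among other cargo, family C moves conjugates and metal chelates into the vacuole, and family G exports lipids of the plant surface, hormones and defence compounds. Several of these transporters are known for their work in roots, where they release coumarins and other compounds into the soil, build the suberin barrier and send cytokinin to the shoot.

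Levels are given in FPKM, fragments scaled to gene length and library size, so that genes of different length can be compared. Recovered totals were 19314683 to 22089042 reads in treated libraries and 19635539 to 23374306 reads in control libraries. For a gene of 1 kb with no read, the upper limit of 3 reads corresponds to 0.129 to 0.154 FPKM and covers counting error only. Genes with a mean of at least 1 FPKM over the 6 libraries were tested with limma on log2(FPKM + 1), and a gene was called higher or lower at an adjusted p under 0.05 over all 18614 genes tested. A log2 change is treated minus control on that scale, where changes of low genes come out too small, and SE is its standard error in the fit. Whether the 3 libraries per group stem from separate cultures is not stated in the labels. The p-values therefore reflect spread between libraries that may be technical. On the first principal component over all tested genes, treated library 2 lay nearer the controls than the other treated libraries did.

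Most ABC transporter genes that could be tested did not pass the threshold, and those that did were mostly lower in treated seedlings. Of the 110 members, 78 were tested, 3 were higher and 13 were lower, and 62 did not pass. Over all genes tested, 14.5% were called, 8.07% higher and 6.41% lower. Among the tested members these shares were 20.5% called, 3.85% higher and 16.7% lower. The higher genes were ABCG16, ABCG36 and ABCB11. The lower genes were ABCB15, ABCG37, ABCG14, ABCG35, ABCG34, ABCG18, ABCC2 (AT2G34660), ABCC4, ABCB4, ABCA4, ABCG20, ABCG30 and ABCE2, in order of their log2 change. The median log2 change was -0.10 over the 78 members and 0.00087 over all genes tested. On recovered reads edgeR called 18 of the 78 members, beside 16.0% of all genes, and DESeq2 called 23, beside 19.5%. All 16 members called by limma had groups that did not overlap. A call from 3 libraries against 3 favours such groups, so this is not separate support for the calls. The share of all called genes without overlap was not computed. Of the 78, 20 had every treated library below every control library and 10 had every treated library above, where the shares over all genes tested were 16.7% and 19.0%. Treated library 2 was the treated library nearest to the control mean in 10 of the 16 called members, treated 3 in 6 and treated 1 in 0. Without treated 2, 18 members were called, beside 18.5% of all genes. Without control 2 the lower members numbered 8, beside 4.16% of all genes. Without treated 1, control 1 or control 2, 1 member was higher in each fit, beside 4.78%, 3.68% and 4.20% of all genes.

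**Figure D1:**
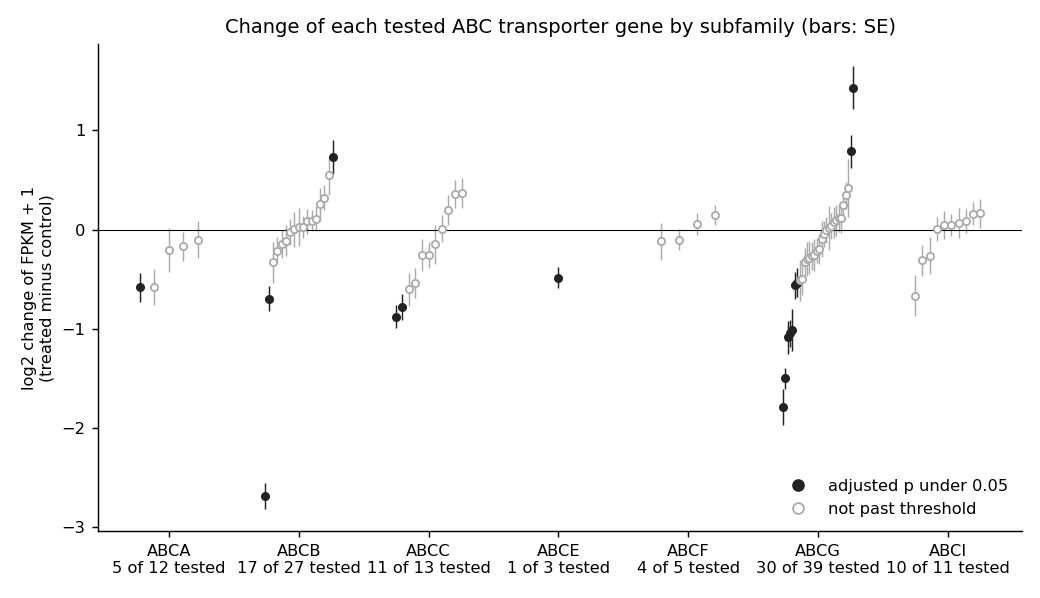
Log2 change of FPKM + 1 (treated minus control) on the vertical axis for each of the 78 tested ABC transporter genes, grouped by subfamily along the horizontal axis; points are the estimates of limma, bars 1 SE, filled points passed an adjusted p of 0.05. The largest fall is ABCB15 in subfamily B, and 9 of the 16 filled points are in subfamily G.

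Most root markers were lower in treated libraries as well, by very different amounts. Of 13 tested root markers 10 were lower and 0 higher, and the summed level of the 17 genes on the list was 499.5 to 552.1 FPKM in treated libraries, against 2114 to 2625 FPKM in control libraries. Most of that sum was BGLU23, a beta-glucosidase of root ER bodies. CASP1 averaged 0.154 FPKM in treated and 9.27 FPKM in control libraries, whereas SCR (limma adjusted p = 0.305), MRN1 (0.164) and MYB36 (0.170) did not pass. CASP5, a scaffold protein of the Casparian strip, was at 0 in all treated libraries, and in control libraries it had 0.223, 0.0558 and 0.193 FPKM, around its limit of 3 reads (0.172 FPKM in the shallowest library). In bulk samples fewer cells of a type and less RNA per cell cannot be told apart. The part of the root markers in the results below was not tested. Of the other marker lists, 3 of 3 tested seed genes, 2 of 7 vascular genes and 1 of 6 genes of shoot epidermis and guard cells were lower and none was higher. Over all genes tested, 6.41% were lower and 8.07% higher. Of the 2 pollen markers, VGDH1 was at 0 in all 6 libraries. VGD1 was at 0 in all treated libraries and at 0.0440, 0.0441 and 0.0190 FPKM in control libraries. These values are below its limit of 3 reads (0.0682 FPKM in the shallowest library).

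Among called members, extremes were picked by the log2 change of FPKM + 1, and by treated to control ratio the order can differ. The regions upstream of the 3 with the largest falls and the 2 with the largest rises on that log2 scale are shown. Each is the 250 bases before the gene start, read 5′ to 3′ on the gene's own strand from the TAIR10.1 RefSeq genome. Capitals mark matches, on either strand, to TTGAC, the core of the W-box bound by WRKY factors. The windows are chr3:10599043-10599292 on the minus strand for ABCB15, chr3:19825017-19825266 on the plus strand for ABCG37, chr1:11377886-11378135 on the minus strand for ABCG14, chr1:22034173-22034422 on the plus strand for ABCG36 and chr3:20418911-20419160 on the minus strand for ABCG16.
ABCB15: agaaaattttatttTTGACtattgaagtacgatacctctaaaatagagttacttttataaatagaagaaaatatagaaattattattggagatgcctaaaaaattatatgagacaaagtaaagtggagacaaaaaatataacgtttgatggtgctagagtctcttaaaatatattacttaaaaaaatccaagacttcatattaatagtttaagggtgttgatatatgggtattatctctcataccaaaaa
ABCG37: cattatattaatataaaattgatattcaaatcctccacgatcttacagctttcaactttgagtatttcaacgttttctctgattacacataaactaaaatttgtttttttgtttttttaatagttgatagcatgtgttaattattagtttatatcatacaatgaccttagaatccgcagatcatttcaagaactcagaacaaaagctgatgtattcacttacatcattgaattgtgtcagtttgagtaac
ABCG14: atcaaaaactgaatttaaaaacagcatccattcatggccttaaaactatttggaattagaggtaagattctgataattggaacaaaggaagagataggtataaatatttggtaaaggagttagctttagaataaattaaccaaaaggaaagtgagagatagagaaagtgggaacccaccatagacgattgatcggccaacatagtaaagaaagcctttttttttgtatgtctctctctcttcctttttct
ABCG36: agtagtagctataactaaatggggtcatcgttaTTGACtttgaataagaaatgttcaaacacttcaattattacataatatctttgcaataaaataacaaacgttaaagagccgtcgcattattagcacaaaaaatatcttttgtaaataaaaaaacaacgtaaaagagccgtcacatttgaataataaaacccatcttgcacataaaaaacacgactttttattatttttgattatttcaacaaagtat
ABCG16: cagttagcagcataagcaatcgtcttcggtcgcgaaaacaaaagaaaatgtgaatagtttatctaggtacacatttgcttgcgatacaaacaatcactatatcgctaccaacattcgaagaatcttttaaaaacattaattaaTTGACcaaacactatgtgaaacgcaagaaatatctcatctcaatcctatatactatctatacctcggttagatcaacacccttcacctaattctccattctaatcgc
The windows of ABCB15, ABCG36 and ABCG16 held 1 match each, and those of ABCG37 and ABCG14 held 0. TTGAC stood in 44.9% of the 27443 windows of the same length in the genome and in 57 of the 110 members. It was found upstream of 3 of the 3 higher members and 6 of the 13 lower ones. Of the other motifs searched on both strands, the G-box CACGTG stood in 6.5% of all windows and 10 members, the P1BS motif GNATATNC of phosphate-response factors in 5.5% and 4 members, and the GCC-box GCCGCC of ethylene-response factors in 1.9% and 0 members. None of these 3 was in the windows printed here. A match is a count of letters and says nothing of binding.

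**Figure D2:**
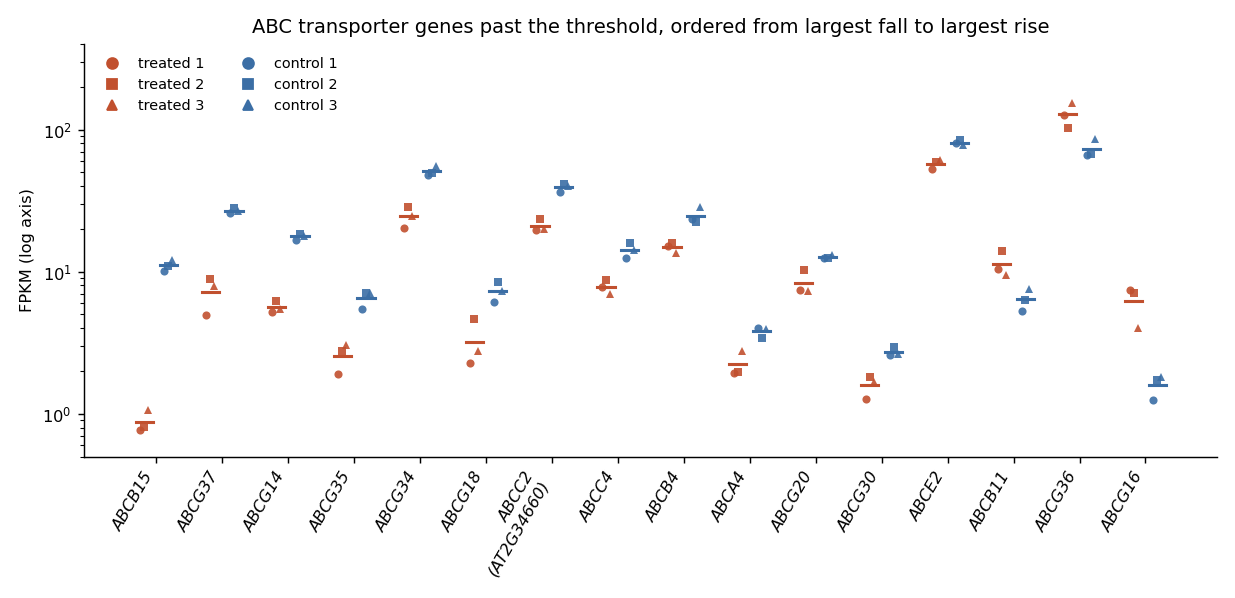
FPKM on a log axis for the 16 ABC transporter genes past the threshold, ordered from the largest fall (left) to the largest rise; each mark is 1 library, treated left of control, and the short lines are group means. In each gene the 3 treated marks and the 3 control marks lie apart, which the call itself favours.

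In subfamily B, whose long members include the known auxin transporters, 2 of 17 tested genes were lower and 1 was higher. Over all genes tested these shares were 6.41% and 8.07%. The median log2 change of the subfamily was 0.03. ABCB15 (AT3G28345, chromosome 3, 10593690 to 10599042, TAIR10), which contributes to auxin transport in stems, had the largest log2 change among the tested members. It had 0.772, 0.810 and 1.06 FPKM in treated libraries 1, 2 and 3, against 10.2, 11.0 and 12.1 FPKM in control libraries 1, 2 and 3. Every treated library was far below the lowest control. The means were 0.880 ± 0.155 and 11.1 ± 0.982 FPKM (SD, n = 3 each), a treated to control ratio of 0.0794, and the log2 change was -2.68 (SE 0.133, limma adjusted p = 1.69e-05). The 4 neighbours of ABCB15 in its gene run, ABCB16, ABCB17, ABCB18 and ABCB22, were at or near 0 in both groups and were not tested.

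ABCB4 (AT2G47000), an auxin transporter of root hairs and the root epidermis, had 15.1, 15.8 and 13.6 FPKM in treated libraries, against 23.5, 22.3 and 28.6 FPKM in control libraries. Its groups did not overlap, and the log2 change was -0.70 (SE 0.125, limma adjusted p = 0.00814). Its relative ABCB11 (AT1G02520) went the other way, with 10.5, 13.9 and 9.53 FPKM in treated libraries and 5.27, 6.32 and 7.61 FPKM in control libraries. Again no libraries overlapped, and the log2 change was 0.73 (SE 0.171, limma adjusted p = 0.0243). That call was lost without treated 1 (adjusted p = 0.0512), control 1 (0.0976) or control 2 (0.0751) in limma. The adjacent gene ABCB12 was not tested, at 0.0374 FPKM in treated and 0.0652 FPKM in control means.

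The best-known auxin exporters of the subfamily did not pass. ABCB1 averaged 29.0 ± 5.93 FPKM in treated and 28.8 ± 5.0 FPKM in control libraries (SD, n = 3 each; limma adjusted p = 0.992). ABCB19, which with ABCB1 carries auxin along the stem and also exports brassinosteroids, averaged 24.6 ± 4.73 and 20.3 ± 3.47 FPKM in treated and control libraries, with a log2 change of 0.26 (limma adjusted p = 0.344). ABCB21, a relative of ABCB4, had a log2 change of 0.55 with overlapping groups (limma adjusted p = 0.107). It passed as higher in limma without treated 2 (adjusted p = 0.0420) and in DESeq2 (adjusted p = 0.0372). ABCB6 and ABCB20, auxin transporters of the shoot, had log2 changes of 0.11 and -0.14, and ABCB14, a malate importer of guard cells that also acts in auxin transport, one of 0.03, with limma adjusted p of 0.580, 0.541 and 0.940.

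None of the 6 tested short members of subfamily B passed, where 14.5% of all genes tested did. ABCB25, the mitochondrial exporter used in cytosolic iron-sulfur protein assembly, averaged 21.6 ± 3.26 FPKM in treated and 20.2 ± 0.726 FPKM in control libraries (SD, n = 3 each). Its mitochondrial relative ABCB23 had a log2 change of -0.02, and ABCB24 was not tested. ABCB27, a vacuolar protein of aluminium tolerance, averaged 17.3 ± 1.27 and 16.1 ± 0.538 FPKM in treated and control libraries. Only ABCB29 among these short members had groups that did not overlap, with 19.8, 21.3 and 24.1 FPKM in treated libraries against 15.8, 19.3 and 16.5 FPKM in control libraries (log2 change 0.32, limma adjusted p = 0.116).

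Subfamily G is the largest, and 7 of its 30 tested members were lower and 2 higher, beside 6.41% and 8.07% of all genes tested. Without control 2, 5 of its members were called, beside 8.36% of all genes. It splits by coding length into 14 long members of 1390 to 1469 codons, the pleiotropic drug resistance type, and 25 short members of 577 to 1109 codons, which work in pairs. Of the long members 11 were tested, with 4 lower and 1 higher and a median log2 change of -0.30. Of the short members 19 were tested, with 3 lower and 1 higher and a median of -0.0025.

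ABCG37 (AT3G53480, chromosome 3, 19825267 to 19831880), which releases coumarins from roots and exports the auxin precursor indole-3-butyric acid, had the largest fall among the long members. It had 4.95, 8.83 and 7.96 FPKM in treated libraries, against 25.7, 28.1 and 26.7 FPKM in control libraries. Its highest treated library was well below its lowest control. The means were 7.25 ± 2.04 and 26.8 ± 1.23 FPKM (SD, n = 3 each), and the log2 change was -1.79 (SE 0.182, limma adjusted p = 0.00048). ABCG34 (AT2G36380), which secretes the phytoalexin camalexin, had 20.4, 28.4 and 24.7 FPKM in treated libraries, against 48.1, 49.8 and 55.8 FPKM in control libraries. No libraries overlapped, and the log2 change was -1.04 (SE 0.137, limma adjusted p = 0.00178).

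ABCG36 (AT1G59870, chromosome 1, 22034423 to 22040126), also known as PEN3, sits in the outer plasma membrane of epidermal cells and acts in defence at the cell surface, in cadmium efflux and in indole-3-butyric acid export. It was the most abundant long member and the only one called higher among the 11 tested. It had 126, 103 and 154 FPKM in treated libraries, against 65.8, 67.8 and 85.4 FPKM in control libraries. All 3 treated libraries were above the highest control, with treated 2 the closest to it. The means were 128 ± 25.7 and 73.0 ± 10.8 FPKM (SD, n = 3 each), and the log2 change was 0.79 (SE 0.169, limma adjusted p = 0.0169). The call was lost in limma without treated 1 (adjusted p = 0.0509), control 1 (0.0759) or control 2 (0.0662).

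ABCG35 (AT1G15210), the closest relative of ABCG36, was lower. It had 1.92, 2.76 and 3.03 FPKM in treated libraries, against 5.42, 7.07 and 7.11 FPKM in control libraries. Its groups lay apart, with a log2 change of -1.08 (SE 0.168, limma adjusted p = 0.0041). ABCG30 (AT4G15230), which brings abscisic acid into the embryo and shapes root exudates, had 1.28, 1.81 and 1.67 FPKM in treated libraries and 2.58, 2.97 and 2.63 FPKM in control libraries. Its log2 change was -0.53 (SE 0.142, limma adjusted p = 0.0401), and the call was lost on leaving out any library but treated 2 (adjusted p 0.0714 to 0.140). ABCG32, a cutin exporter among the long members, averaged 28.3 ± 7.79 FPKM in treated and 29.6 ± 2.35 FPKM in control libraries (SD, n = 3 each; limma adjusted p = 0.771).

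Among the short members ABCG14 (AT1G31770, chromosome 1, 11374760 to 11377885), needed to send cytokinin from root to shoot, had 5.21, 6.19 and 5.47 FPKM in treated libraries, against 16.8, 18.5 and 17.8 FPKM in control libraries. The spread within each group was small against the gap between them. The means were 5.63 ± 0.511 and 17.7 ± 0.875 FPKM (SD, n = 3 each), and the log2 change was -1.50 (SE 0.110, limma adjusted p = 7.83e-05). ABCG20 (AT3G53510), a transporter of the suberin barrier, had 7.48, 10.3 and 7.36 FPKM in treated libraries and 12.4, 12.5 and 13.1 FPKM in control libraries. Its log2 change was -0.56 (SE 0.138, limma adjusted p = 0.0295), a call lost on leaving out any library but treated 2 (adjusted p 0.0789 to 0.0939).

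The largest rise among the tested members was that of ABCG16 (AT3G55090, chromosome 3, 20416183 to 20418910), a jasmonate transporter that also acts in suberin and pollen wall formation. It had 7.49, 7.06 and 3.99 FPKM in treated libraries, against 1.26, 1.74 and 1.81 FPKM in control libraries. Treated 3 was the lowest treated library and still above every control. The means were 6.18 ± 1.91 and 1.60 ± 0.301 FPKM (SD, n = 3 each), a ratio of 3.86, with a log2 change of 1.43 (SE 0.217, limma adjusted p = 0.00363).

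ABCG16 stands in a run of neighbouring members with ABCG17, ABCG18 and ABCG19 on the same strand of chromosome 3, and these neighbours differed in direction. ABCG17, which with ABCG18 imports abscisic acid, was at 0 in all 6 libraries. ABCG18 (AT3G55110) had 2.28, 4.63 and 2.75 FPKM in treated libraries, against 6.17, 8.44 and 7.29 FPKM in control libraries, so that ABCG18 was lower where ABCG16 was higher. Its log2 change was -1.01 (SE 0.212, limma adjusted p = 0.0161), and the call was lost without treated 3 (adjusted p = 0.0553), control 2 (0.0652) or control 3 (0.0564). ABCG19, which gives kanamycin resistance, averaged 8.61 ± 2.72 FPKM in treated and 12.4 ± 1.43 FPKM in control libraries (SD, n = 3 each; limma adjusted p = 0.147).

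**Figure D3:**
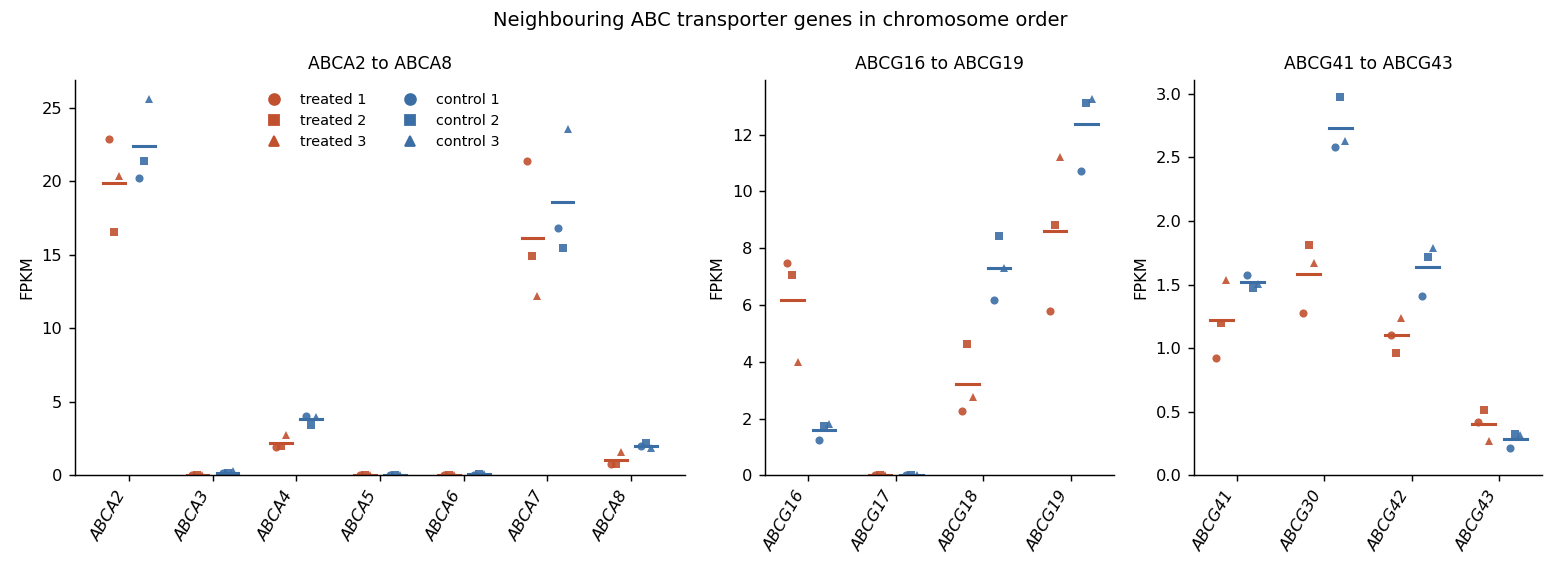
FPKM on linear axes for 3 runs of neighbouring ABC transporter genes in chromosome order; each mark is 1 library, treated left of control, and short lines are group means. ABCG16 is higher and ABCG18 lower in treated libraries within 1 run, and ABCA2 and ABCA7 stand well above the other genes of theirs.

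Members that follow one another on a chromosome with at most 1 other gene between them formed 11 runs of 35 members. Of these 17 were tested, with 2 higher (ABCB11 and ABCG16) and 4 lower (ABCB15, ABCA4, ABCG18 and ABCG30). Among all 78 tested members 3 were higher and 13 lower, and among all genes tested 8.07% and 6.41%. Whether members in runs differ from the others was not tested. In the run of ABCG41, ABCG30, ABCG42 and ABCG43 only ABCG30 passed. ABCG42 had a log2 change of -0.33 (limma adjusted p = 0.162), but 87.1% of its transcript has a near copy in ABCG43, so reads of this pair may be split between them.

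Subfamily A has its tested members mostly in the run from ABCA2 to ABCA8. All 5 tested members had a log2 change below 0, as did 49.9% of all genes tested. Of the 5, 1 passed as lower, ABCA4, beside 6.41% of all genes tested. ABCA4 (AT3G47750) had 1.95, 1.98 and 2.77 FPKM in treated libraries, against 4.05, 3.44 and 3.95 FPKM in control libraries. Its log2 change was -0.58 (SE 0.148, limma adjusted p = 0.0344), and the call was lost on leaving out any library but treated 3 (adjusted p 0.0628 to 0.127). ABCA2 and ABCA7, the most abundant of the subfamily, averaged 19.9 ± 3.17 and 16.2 ± 4.71 FPKM in treated libraries, against 22.4 ± 2.86 and 18.6 ± 4.31 FPKM in control libraries (SD, n = 3 each), with limma adjusted p of 0.486 and 0.580. Of the span of ABCA2, 82.7% lies inside genes on the other strand, and whether the counts used strand is not given in the sources used here.

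ABCA3 was too low for the test, with 2, 1 and 0 reads in treated libraries and 10, 10 and 19 reads in control libraries. The authors' deposited table of differential genes holds 3.21% of the listed genes as lower and 3.18% as higher, and 8 members are in it. It gives ABCA3 a log2 fold change of -3.69. The authors' deposited table also lists ABCB15 (-3.66), ABCG37 (-1.89), ABCG14 (-1.65), ABCG35 (-1.35), ABCG18 (-1.18) and ABCG34 (-1.07) as lower and ABCG16 (1.95) as higher. All 8 members in it have a log2 fold change above 1 in size, and its filters are not given. The limma calls had no limit on the size of the change, so the 2 counts of members are not on 1 threshold.

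In subfamily C, which moves conjugates and chelates into the vacuole, 2 of 11 tested members were lower and 0 higher. Over all genes tested these shares were 6.41% and 8.07%. The median log2 change of the subfamily was -0.25. The counts, the median and the sum that follows include AT1G54350, which RefSeq calls ABCD2. The summed level of the 13 members was 136 ± 13.4 FPKM in treated and 172 ± 14.8 FPKM in control libraries (SD, n = 3 each). ABCC2 (AT2G34660), which with ABCC1 carries phytochelatin complexes of arsenic, cadmium and mercury into the vacuole, had 19.5, 23.6 and 20.1 FPKM in treated libraries, against 36.6, 41.4 and 40.3 FPKM in control libraries. The groups lay far apart, and the log2 change was -0.88 (SE 0.114, limma adjusted p = 0.00166). ABCC4 (AT2G47800), a folate transporter with a part in stomatal opening, had 7.86, 8.72 and 6.93 FPKM in treated libraries and 12.5, 15.8 and 14.2 FPKM in control libraries. Its log2 change was -0.78 (SE 0.129, limma adjusted p = 0.00563).

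ABCC1 had 20.0, 22.3 and 30.3 FPKM in treated libraries, against 33.1, 35.2 and 36.9 FPKM in control libraries. Its groups did not overlap, and it just missed the threshold, with a log2 change of -0.54 (SE 0.154, limma adjusted p = 0.0511). It passed without treated 3 (limma adjusted p = 0.0107), with median-ratio scaling (0.0469), in edgeR (0.0466) and in DESeq2 (0.011). ABCC10 stood at the threshold itself (log2 change -0.60, limma adjusted p = 0.050) and is counted as not past it. Without treated 2 its limma adjusted p was 0.011, and it also passed under both other scalings, in edgeR and in DESeq2 (adjusted p 0.0053 to 0.0478). ABCC3, a vacuolar transporter of cadmium tolerance, averaged 22.9 ± 4.22 FPKM in treated and 19.7 ± 2.16 FPKM in control libraries (SD, n = 3 each; limma adjusted p = 0.429). ABCC5, which loads inositol hexakisphosphate into the vacuole and acts in guard cells, had a log2 change of -0.25 (limma adjusted p = 0.247). The row AT1G54350, also named ABCC2 in the table, averaged 17.9 ± 2.47 and 13.7 ± 2.02 FPKM in treated and control libraries (limma adjusted p = 0.127), and 51.4% of it is overlapped by an opposite-strand gene.

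Of the soluble members, ABCE2 (AT4G19210), the ribosome recycling factor also called RLI2, was lower. It had 52.6, 59.0 and 61.2 FPKM in treated libraries, against 80.1, 84.8 and 78.0 FPKM in control libraries. No libraries overlapped, and the log2 change was -0.49 (SE 0.106, limma adjusted p = 0.0183). The call was lost in limma without treated 1 (adjusted p = 0.060), control 1 (0.0671) or control 2 (0.0816). Its relative ABCE1 was not tested, at 0.632 ± 0.143 FPKM in treated and 0.712 ± 0.262 FPKM in control libraries (SD, n = 3 each).

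None of the 4 tested members of subfamily F passed, and none of the 10 of subfamily I, where 14.5% of all genes tested did. ABCF1 and ABCF5, relatives of translation regulators of the yeast GCN20 kind, averaged 102 ± 21.9 and 52.8 ± 4.98 FPKM in treated libraries, against 110 ± 21.5 and 50.7 ± 1.75 FPKM in control libraries (SD, n = 3 each). ABCI8, ABCI6 and ABCI7, which form the SUFB, SUFC and SUFD scaffold of iron-sulfur cluster assembly in plastids, had log2 changes of -0.31, 0.09 and 0.00 (limma adjusted p of 0.221, 0.672 and 0.986). ABCI21, an ER protein linked to cytokinin response, had 18.5, 11.9 and 10.9 FPKM in treated libraries and 24.0, 17.9 and 24.4 FPKM in control libraries. Treated 1 overlapped the controls, and the log2 change was -0.67 (SE 0.206, limma adjusted p = 0.0689). It passed as lower in limma without treated 1 (adjusted p = 0.0132) and in DESeq2 (adjusted p = 0.0175).

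Sorted by role instead of subfamily, and set beside other genes of the same pathways, members moved in both directions within several roles. Over all genes tested, 6.41% were lower and 8.07% higher, and every count by role or pathway below stands beside these shares. The roles overlap: ABCG36 and ABCG37 are in auxin transport and in exudation and defence, and ABCG30 in the latter and in abscisic acid transport. Their calls are therefore counted in each of their roles. Of 10 tested auxin transporters 3 were lower (ABCB15, ABCG37 and ABCB4) and 1 higher (ABCG36). Of 11 tested auxin carriers and partners outside the family, 3 were lower and 0 higher: the exporter gene PIN2 (log2 change -1.08, limma adjusted p = 0.00188) and the importer genes LAX3 (-0.91, 0.00768) and LAX2 (-0.49, 0.0442).

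Of 6 tested transporters grouped under root exudation and defence, not all of them exporters, 3 were lower (ABCG37, ABCG34 and ABCG30) and 1 higher (ABCG36). ABCG29, a monolignol transporter, had a log2 change of 0.04 and ABCG40, an importer of abscisic acid, one of -0.30 (limma adjusted p of 0.875 and 0.283). Of 3 tested coumarin synthesis genes 1 was lower. It was F6'H1, the enzyme that makes the coumarin scaffold exported by ABCG37, at 7.15, 8.78 and 4.85 FPKM in treated libraries and 34.0, 39.7 and 40.3 FPKM in control libraries (log2 change -2.33, SE 0.185, limma adjusted p = 0.00013). In contrast, of 9 tested genes of camalexin and indole glucosinolate defence 5 were higher and 1 lower. The lower one was CYP79B3 (log2 change -0.48, limma adjusted p = 0.0172), and CYP83B1, CYP79B2 and CYP71A13 did not pass. CYP81F2, which modifies indole glucosinolates, changed by 1.43 (limma adjusted p = 0.00161), the camalexin genes CYP71A12 and CYP71B15 by 1.15 and 1.10 (0.00139 and 0.0475), and SYP121, a syntaxin of defence at the cell surface, by 0.86 (0.0227).

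**Figure D4:**
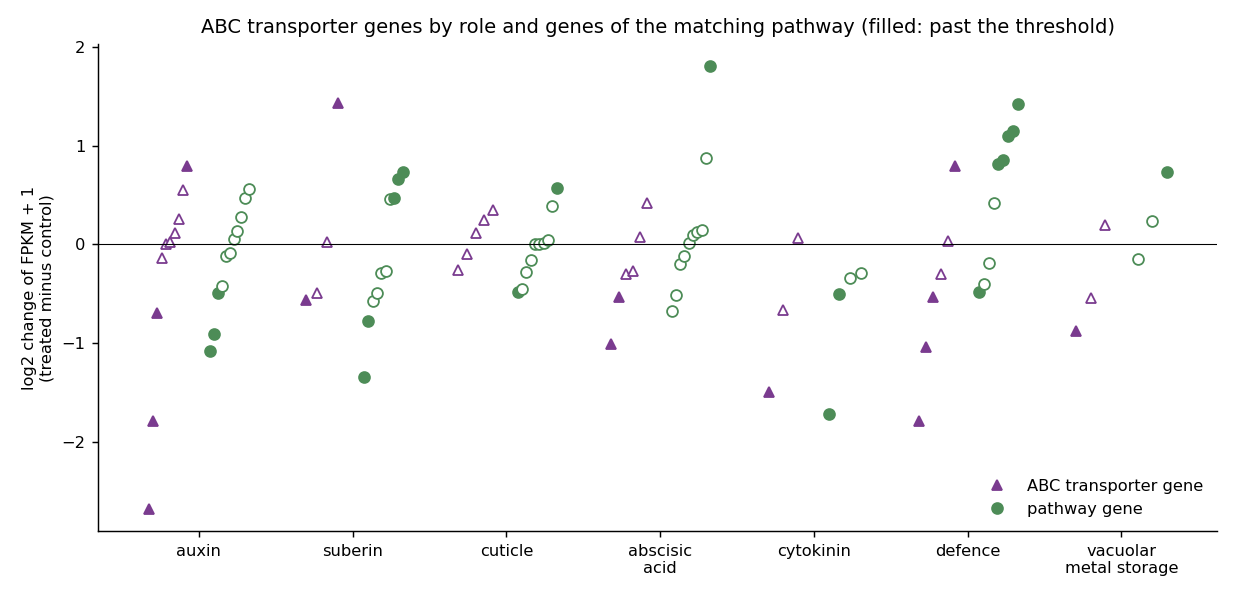
Log2 change of FPKM + 1 (treated minus control) for ABC transporter genes (triangles) and for other genes of the matching pathway (circles), by role along the horizontal axis; filled marks passed a limma adjusted p of 0.05. In the defence column the pathway genes past the threshold are mostly above 0, and 3 of the 4 filled transporter marks are below it. That column sets all transporters grouped under root exudation and defence beside the camalexin and indole glucosinolate genes alone. ABCG37, among the lower marks, releases coumarins, and the coumarin synthesis genes are not plotted.

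Transporters of the suberin barrier had 1 higher (ABCG16) and 1 lower (ABCG20) among 4 tested. ABCG6, which acts with ABCG20, had groups that did not overlap, at 12.9 ± 2.85 FPKM in treated and 18.3 ± 1.60 FPKM in control libraries (SD, n = 3 each; limma adjusted p = 0.0777), and ABCG1 had a log2 change of 0.02. Suberin synthesis genes were mixed as well, with 3 of 10 higher and 2 lower. CYP86A1, the fatty acid hydroxylase of root suberin, changed by -1.34 (limma adjusted p = 0.000128) and the reductase gene FAR5 by -0.78 (0.00612), while FAR1 changed by 0.74 (0.0138) and the regulator MYB41 by 0.66 (0.0251).

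The cuticle exporters did not pass. ABCG12, which exports wax, had 50.9, 57.1 and 67.4 FPKM in treated libraries, against 48.4, 47.8 and 50.2 FPKM in control libraries, without overlap (log2 change 0.25, limma adjusted p = 0.223). ABCG11, its partner for wax and cutin, had a log2 change of 0.12 (24.9% of its span is shared with opposite-strand genes), ABCG5, an exporter of the cotyledon cuticle, 0.35, and ABCG13, a cutin exporter of petals, -0.26 (limma adjusted p of 0.630, 0.136 and 0.336). Of 10 tested cuticle synthesis genes the acyl-CoA synthetase gene LACS1 was higher (0.57, limma adjusted p = 0.0275) and LACS2 lower (-0.49, 0.0331).

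Of 6 tested transporters of abscisic acid, 2 were lower (ABCG18 and ABCG30). ABCG25, an exporter, and ABCG31, which acts in the endosperm and in pollen, had log2 changes of 0.08 and -0.27 (limma adjusted p of 0.786 and 0.242). ABCG22, which acts in stomatal closure, had 14.3, 30.3 and 14.1 FPKM in treated libraries and 13.7, 16.1 and 11.0 FPKM in control libraries (limma adjusted p = 0.388). Treated 2 alone stood above every control there. Of 10 tested genes of abscisic acid synthesis and breakdown 1 was higher, the hydroxylase gene CYP707A3, which breaks the hormone down (1.81, limma adjusted p = 0.00966).

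For cytokinin, ABCG14 was the 1 transporter of 3 tested that passed. Of 4 tested cytokinin synthesis genes 2 were lower, the trans-zeatin hydroxylase gene CYP735A2 (log2 change -1.72, limma adjusted p = 0.000295) and IPT3 (-0.50, 0.0421). CYP735A2 had 0.391, 0.915 and 0.798 FPKM in treated libraries, against 4.37, 5.0 and 4.29 FPKM in control libraries, a gap of the same direction as that of ABCG14.

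Vacuolar storage of metals and conjugates had 1 lower of 3 tested (ABCC2). The phytochelatin synthase gene PCS1, whose product makes the chelates that ABCC1 and ABCC2 carry, was higher, at 43.2, 33.9 and 37.6 FPKM in treated libraries and 21.2, 21.3 and 25.1 FPKM in control libraries (log2 change 0.73, SE 0.126, limma adjusted p = 0.00674). Of 3 tested genes on its list no other passed. ABCB27 and ABCI17, transporters of aluminium tolerance, did not pass, nor did 2 tested aluminium tolerance genes outside the family, the more abundant being STOP1 (limma adjusted p = 0.996). Nor did 5 tested plastid partners of iron-sulfur and lipid import, of which the scaffold gene SUFA was the most abundant (log2 change 0.26, limma adjusted p = 0.134).

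The 32 untested members had means below 1 FPKM, and 7 of them were at 0 in all 6 libraries: ABCA11, ABCA12, ABCB18, ABCB22, ABCG9, ABCG17 and ABCG28. Of the 4 members known from pollen, ABCG9 and ABCG28 were at 0 throughout, ABCG26 was at 0 in all treated libraries and reached 0.0634 FPKM in controls, and ABCG31 was tested. At these depths their absence cannot be told from levels under the limit of 3 reads. For 4 untested members, ABCA3, ABCA6, ABCF2 and ABCG4, every treated library was below every control library in FPKM, on few reads. ABCG4 had 1, 0 and 0 reads in treated libraries and 6, 1 and 3 in control libraries, so treated 1 and control 2 held 1 read each. ABCA6 had 0, 1 and 0 against 2, 8 and 5 reads, and ABCF2 had 10, 10 and 4 against 17, 12 and 14. The share of all untested genes with such a gap was not computed.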

How the data were processed

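Per the submitters' processing notes, reads were aligned with HISAT2 2.0.5 to TAIR10. The sources used here do not name the counting program, annotation release, strand use or filters. The authors deposited FPKM for 32948 genes, of which 13415 carry a name, and a table of differential genes that holds a signal per library (normalized counts), a p-value and a log2 fold change. Multiplied by gene length, 100% of the deposited FPKM values were whole multiples (within 0.01) of the worth of 1 read in their library, so read counts were recovered. Of the gene IDs, 32548 matched the TAIR10.1 RefSeq annotation, 99.95% of them with the same start and end.

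Groups came from the treatment label. limma 3.58.1 in R 4.3.3 (lmFit, eBayes with trend and robust, 2-sided) was run on log2(FPKM + 1) over the 18614 genes with mean FPKM of at least 1, with treatment as the only term and Benjamini-Hochberg adjustment over all of them. The step was tested on simulated data. Alternatives were pseudocounts of 0.1 and 0.5, no filter and a filter at 5 FPKM, 2 other scalings, eBayes without trend or robust, a replicate block, each library left out, and edgeR 4.0.16 (quasi-likelihood) and DESeq2 1.42.0 on recovered reads. Membership by RefSeq symbol was added after seeing the data.

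Long and short members were separated at 1200 codons. Named genes were every member past the threshold, the 2 most abundant of each subfamily, members of the role groups, and up to 4 genes past the threshold per pathway list, or else its most abundant gene; members that stood near the threshold, were not tested, neighbour a called gene or have non-overlapping groups were named after their values were seen. The naming rule for members and the 15 lists, which hold 113 genes, were set with earlier results of these data known. The rule itself uses no measured value. Marker genes and the other named genes of the lists were named after their values were seen. No pair of libraries of a group was a repeat of 1 library (chi-square per degree of freedom 12.3 to 34.9).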

Additional observations from a re-analysis of the deposited data

How the results depend on the processing

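Under the 16 alternatives, wherever they were tested, all 16 called members kept their direction and 9 of them kept their call: ABCB4, ABCB15, ABCC2 (AT2G34660), ABCC4, ABCG14, ABCG16, ABCG34, ABCG35 and ABCG37. The other 7 lost it only in fits without 1 library. edgeR called 18 members, all 16 among them (16.0% of all genes called), and DESeq2 23, all 16 among them (19.5%). No filter gave 16 of 103 tested, the same 16 (11.0% of all genes, 2804), and a filter at 5 FPKM 12 of 56 (13.6%, 1825). With members named by RefSeq symbol, 3 were higher and 15 lower; ABCG36, there PEN3, left the higher members and ABCG27 joined them.

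By subfamily, A had 0 calls with the filter at 5 FPKM and 2 in DESeq2, and I had 1 with the replicate block and in DESeq2. C had 4 with median-ratio scaling, with the replicate block, in edgeR and in DESeq2. ABCC10 passed under 6 alternatives, ABCC1 under 5, ABCB21 and ABCI21 under 3 each (with the replicate block, in DESeq2, and without treated 2 for ABCB21 or treated 1 for ABCI21), ABCA8 and ABCG6 under 2 each, and ABCG19 and ABCG42 under 1 each. Leaving out 1 library gave 1 to 4 members higher and 8 to 14 lower, 0 to 2 calls in A, 2 to 4 in B, 2 to 3 in C, 0 to 1 in E, 0 to 0 in F, 5 to 10 in G and 0 to 1 in I, and 1340 to 3442 genes in all (1340 without control 1, 1555 without control 2). The cause of these shifts was not tested, beyond the fewer samples in each fit.

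Numbers 1 to 3 are shared between the groups. Same-numbered libraries had correlations of deviations from the group mean of 0.086, 0.38 and 0.10, and treated 1 correlated best with control 3 (0.30). Deviations from a mean of 3 libraries sum to 0 for each gene, so these values cannot decide whether the libraries are pairs. The main fit did not take them as pairs. With the replicate block 21 members were called, the 16 among them, beside 3256 of all genes (17.5%).

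No called member changed sign. Of the 62 others 23 did, all when 1 library was left out, with log2 changes near 0: ABCA1 -0.30 to 0.068, ABCB1 -0.14 to 0.15, ABCB14 -0.11 to 0.22, ABCB2 -0.25 to 0.029, ABCB23 -0.10 to 0.076, ABCB25 -0.017 to 0.19, ABCB26 -0.020 to 0.099, ABCC11 -0.062 to 0.079, ABCC14 -0.28 to 0.061, ABCF1 -0.28 to 0.029, ABCG1 -0.099 to 0.24, ABCG10 -0.12 to 0.0036, ABCG15 -0.00045 to 0.22, ABCG24 -0.10 to 0.058, ABCG25 -0.018 to 0.18, ABCG29 -0.062 to 0.14, ABCG32 -0.29 to 0.081, ABCG8 -0.013 to 0.18, ABCI1 -0.0027 to 0.090, ABCI11 -0.084 to 0.14, ABCI19 -0.045 to 0.17, ABCI6 -0.0012 to 0.19, ABCI7 -0.086 to 0.090. With all libraries ABCB1 also turned, at -0.012 with median-ratio scaling, -0.0056 with equal sums, -0.0053 in edgeR and -0.00086 in DESeq2, and ABCI7, at -0.011, -0.0052, -0.015 and -0.011 in the same order. Depth limits the 32 untested members most; the called members had at least 69 reads in every library.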

Other observations

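The RefSeq annotation gives an ABC name to 17 genes that the table lists under another name or none, and these are outside the rule. Of them 15 were tested, 1 was higher and 2 were lower, beside 8.07% and 6.41% of all genes tested. The higher one was ABCG27 (AT3G52310), at 4.66, 3.17 and 2.33 FPKM in treated libraries against 1.08, 1.06 and 1.07 FPKM in control libraries (log2 change 1.05, SE 0.197, limma adjusted p = 0.00989). All treated libraries were above all controls. The lower ones were ABCG23 (AT5G19410), at 4.10 ± 1.12 and 7.47 ± 0.687 FPKM in treated and control libraries (log2 change -0.75, limma adjusted p = 0.0212), and ABCC8 (AT3G21250), at 9.22 ± 1.94 and 15.8 ± 0.771 FPKM (-0.73, 0.015; SD, n = 3 each).

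The 3 TGD genes of plastid lipid import, ABCI14, ABCI15 and ABCI13, had log2 changes of 0.21, -0.23 and 0.23 (limma adjusted p of 0.270, 0.157 and 0.299). ABCI20, an ER relative of ABCI21, averaged 30.1 ± 5.21 FPKM in treated and 42.7 ± 6.21 FPKM in control libraries without overlap (SD, n = 3 each; limma adjusted p = 0.0767).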
